A study of Mus musculus with 31 samples.

Results

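Aif1, Cx3cr1, P2ry12, Tmem119, Csf1r, Trem2, Itgam and C1qa are 8 genes used to recognise microglia, the resident macrophages of the brain. They were taken by gene name from single-colour Agilent arrays of whole mouse brain. All 8 were measured, by 13 probes, among 25300 genes that passed the background filter on 31 arrays. The mice were 6-week-old C57BL/6 females, anaesthetised with xylazine and ketamine and injected once, through a tail vein, with 200 µl. The treated mice (n = 17) received oleic acid at 1.2 µl per g body weight, a fatty acid that injures the lung when it enters the blood, and the controls (n = 14) received physiological serum. Brains were taken after 1, 1.5, 3, 4, 18 or 24 h. The 1 h and 1.5 h groups held 3 oleic acid mice and 3 serum mice each. There were 3 oleic acid mice and 2 serum mice per time after 3, 4 and 24 h, and 2 of either treatment after 18 h. All mice had the anaesthetic and the injection, and no uninjected brains were analysed here. Each sample is taken as 1 mouse, and p-values measure the spread between these samples only.

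Microglia settle in the brain before birth and renew themselves there. Csf1r, the receptor for the cytokines encoded by Csf1 and Il34, keeps them alive, and Cx3cr1 receives the neuronal ligand made from Cx3cl1. P2ry12 senses ADP released at an injury and steers microglial processes towards it, and its level is known to drop when microglia become activated. Trem2 binds lipids and signals through the adaptor encoded by Tyrobp. Itgam, the alpha chain of complement receptor 3, pairs with Itgb2, and C1qa, with C1qb and C1qc, forms the C1q molecule that starts the classical complement cascade. Tmem119 is a membrane protein and Aif1, also called Iba1, an actin-binding protein, both used as microglial stains. Itgam, Csf1r, Cx3cr1 and Aif1 are also found in blood monocytes or other macrophages.

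The probe that stood for Itgam has an unusual sequence, shown here because the Itgam values turn on it. The array holds 3 probes for Itgam, on the plus strand of chromosome 7 of mm9. The brightest lies at chr7:135261755-135261814, the second at chr7:135260275-135260334 and the third at chr7:135212140-135212199. Capitals mark a run of 10 CA units at the 5′ end of the brightest, of which the opening 30 of 60 bases are given; the other 2 are given whole.
Itgam, the brightest probe: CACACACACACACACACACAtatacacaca
Itgam, the second probe: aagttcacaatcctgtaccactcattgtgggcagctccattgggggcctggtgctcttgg
Itgam, the third probe: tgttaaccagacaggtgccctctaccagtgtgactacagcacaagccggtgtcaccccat
Wherever Itgam is given with no probe named, the value is that of the brightest.

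Promoters were looked at because several of the 8 genes moved together from brain to brain. Of the 8 genes, 5 were matched to RefSeq promoters of GRCm38.p6 (Aif1, Trem2, Itgam, Cx3cr1 and P2ry12). Their 250 bases before the start site were searched on both strands for GAGGAA, which reads as TTCCTC on the opposite strand. GAGGAA is a form of the sequence read by PU.1, the macrophage factor that Spi1 encodes, and shorter or altered forms were not searched. Itgam held 2 copies, Aif1 and Trem2 held 1 each, and Cx3cr1 and P2ry12 held none in this window, while 23.3% of 32851 promoters held at least 1. The last 100 bases before the start of Aif1 (chr17:35176053-35176152, minus strand), Trem2 (chr17:48346301-48346400, plus strand), Cx3cr1 (chr9:120068297-120068396, minus strand) and P2ry12 (chr3:59262986-59263085, minus strand) follow, with the match in capitals.
Aif1: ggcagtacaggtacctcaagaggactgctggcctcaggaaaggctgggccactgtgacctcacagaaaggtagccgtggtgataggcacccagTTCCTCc
Trem2: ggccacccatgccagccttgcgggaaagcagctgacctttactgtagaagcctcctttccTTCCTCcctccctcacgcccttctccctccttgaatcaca
Cx3cr1: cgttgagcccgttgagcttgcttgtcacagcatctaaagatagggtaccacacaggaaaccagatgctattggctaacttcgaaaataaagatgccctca
P2ry12: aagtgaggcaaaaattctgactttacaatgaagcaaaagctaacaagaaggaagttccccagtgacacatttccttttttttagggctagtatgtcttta
The pair that moved together most closely among these 4, Aif1 and Cx3cr1, had the match in 1 of its 2 promoters. A match of letters is a description of sequence, not a bound site.

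On mm9, the other brightest probes lie at chr17:35307959-35308018 for Aif1, chr9:119957811-119957870 for Cx3cr1, chr3:59020598-59020657 for P2ry12, chr5:114243962-114244021 for Tmem119 and chr4:136452409-136452468 for C1qa, all on the minus strand, and at chr17:48491537-48491596 on the plus strand for Trem2. Their place in exons was not analysed here. Levels are given as log2 of Agilent's processed signal minus the 75th percentile of its array, so that a level of 0 equals that percentile. Of the 13 probes, 12 were well above background on all 31 arrays, and the third Itgam probe was on 20. Aif1 averaged 1.22 ± 0.174 (SD, n = 31), Cx3cr1 2.62 ± 0.242, P2ry12 -0.09 ± 0.275, Tmem119 1.5 ± 0.290, Csf1r 4.40 ± 0.173, Trem2 1.88 ± 0.202, Itgam 6.08 ± 0.355 and C1qa 2.25 ± 0.229. Levels of different probes cannot be ranked against each other, but their spreads can be read against the median SD of 0.271 over all genes. Csf1r and Aif1 varied little, with SDs at percentiles 15.6 and 16.1 of those of all genes, and Itgam the most of the 8, at percentile 65. Across mice, Aif1 ranged from 0.95 to 1.5 (median 1.21) after oleic acid and from 0.89 to 1.51 (median 1.2) after serum. Tmem119 ranged from 0.99 to 2.01 (median 1.39) after oleic acid and from 1.07 to 2.19 (median 1.47) after serum. Every one of the 8 genes had overlapping ranges in oleic acid and serum mice.

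**Figure D1:**
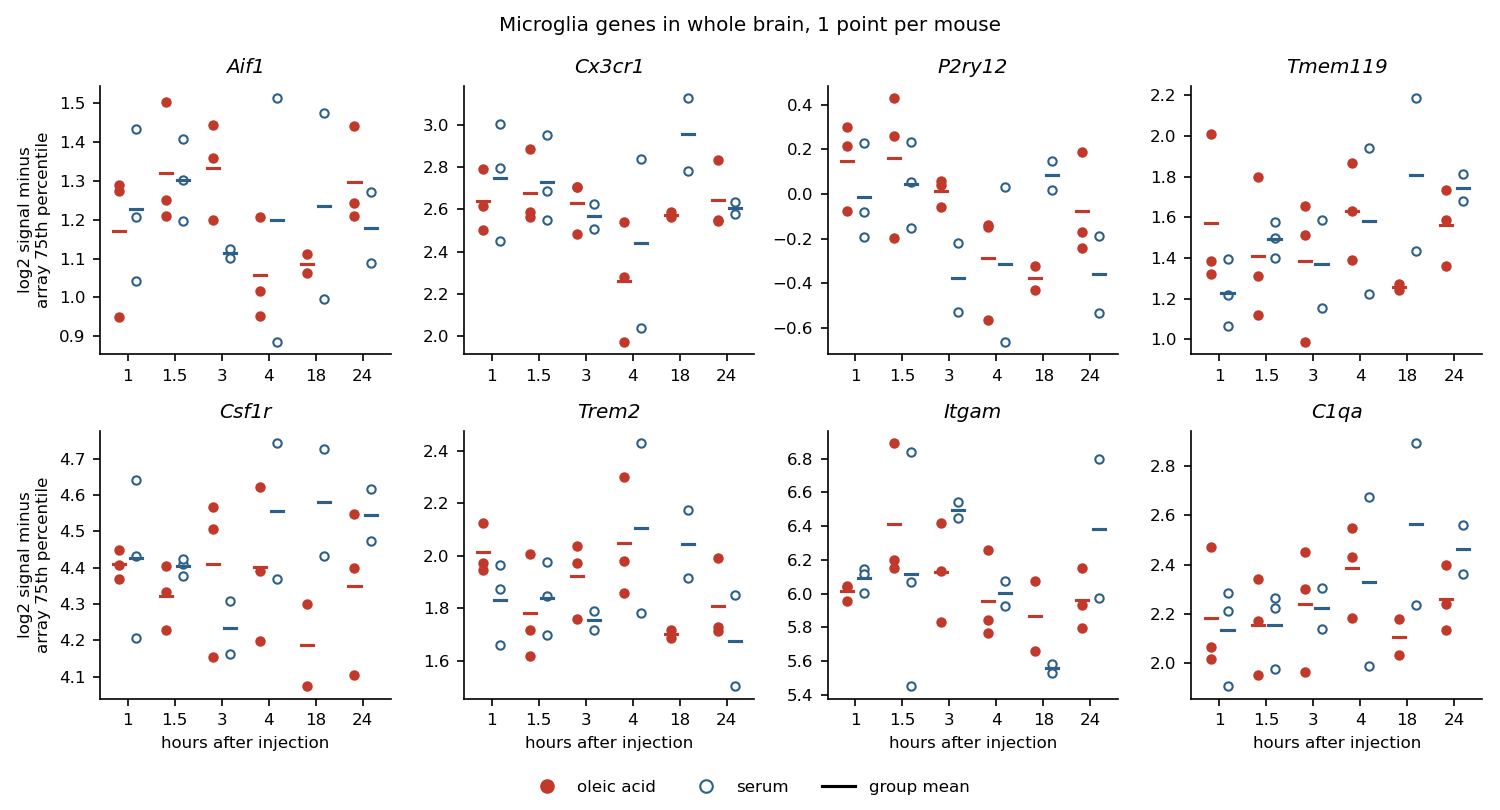
Log2 signal minus the array 75th percentile (vertical axis) of the 8 microglia genes against hours after injection, 1 point per mouse, with oleic acid filled and serum open and bars at group means. The groups overlap at most times, and the 18 h serum points lie above the oleic acid points for Cx3cr1, P2ry12, Tmem119, Csf1r, Trem2 and C1qa.

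The arrays differed in markers of brain regions and in the slide they lay on, and both touch the results that follow. In 4 arrays (serum 1 h replicate 1, oleic acid 1.5 h replicate 2, serum 4 h replicate 2 and oleic acid 4 h replicate 3) Gabra6, a marker of cerebellar granule cells, lay between -7.59 and -6.12, against -3.94 to 2.32 in the other 27. Prl, a pituitary hormone, lay between 7.66 and 7.91 in 3 arrays of 24 h. The 31 arrays lay on 5 slides, read from the array barcodes, and slide is partly bound to time: at 18 h the oleic acid arrays were on slide 5 and the serum arrays on slide 4. The arrays of slide 2, and only those, had another scan date than the rest. Slide held 71.7% of the variance of Itgam, 46.8% of Trem2, 26.8% of Tmem119 and 3.33 to 22.3% of the other 5.

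The comparison of oleic acid with serum asks whether these genes differ in the brain after intravenous oleic acid, which the study uses as a model of lung injury. Injury of the lung was not measured in the files used here. None of the 8 genes passed the test at 1, 1.5, 3, 4, 18 or 24 h, nor for the mean effect over the 6 times (limma, Benjamini-Hochberg adjusted p under 0.05 over 25300 genes; no other tool was run). The share of all genes called was 0% at 1, 1.5, 3, 18 and 24 h and for the mean effect, and 0.00395% (1 gene) at 4 h, so the 8 genes matched the background. At an unadjusted p under 0.05 the count was 0 of 8 at 1, 1.5, 3, 4 and 24 h, against 4.86, 5.27, 4.84, 3.05 and 6.59% of all genes at those times. It was 1 of 8 at 18 h, Csf1r, against 7.26%, and 0 of 8 for the mean effect, against 4.57%.

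The mean effect over the 6 times was estimated most tightly. Csf1r averaged 4.35 after oleic acid and 4.46 after serum, a log2 difference of -0.11 ± 0.065 (SE, limma adjusted p = 0.998, 95% confidence interval -0.25 to 0.02). Cx3cr1 averaged 2.57 after oleic acid and 2.68 after serum (log2 difference -0.10, interval -0.27 to 0.07). P2ry12 averaged -0.07 after oleic acid and -0.16 after serum (log2 difference 0.09, interval -0.09 to 0.26). Trem2, at 1.88 and 1.87, and Aif1, both at 1.21, had the smallest differences, 0.0043 and 0.0019. Of the 8 genes 3 were higher and 5 lower in oleic acid mice, with a median log2 difference of -0.06, against -0.01 over all genes. No interval reached below -0.30 (Itgam) or above 0.26 (P2ry12), so that a mean change beyond these bounds was outside the interval of every one of the 8. Scaling each array to its median in place of the 75th percentile moved every gene by the same amount in a comparison: by -0.027 for the mean effect (1 of 8 then higher), 0.104 at 3 h, -0.196 at 4 h, -0.137 at 18 h and 0.115 at 24 h. At 4 h this left 0 of 8 genes higher, against 3 of 8 before, and the counts at 3, 18 and 24 h were unchanged. The shift was -0.074 at 1.5 h, where 2 of 8 were then higher, against 4 before, and 0.028 at 1 h, where 5 were, against 4 before. Whether the oleic acid effect differed between times was tested directly, and 0 of 8 genes passed (adjusted p between 0.838 and 0.888; 0 of 8 at an unadjusted p under 0.05, against 5.43% of all genes).

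**Figure D2:**
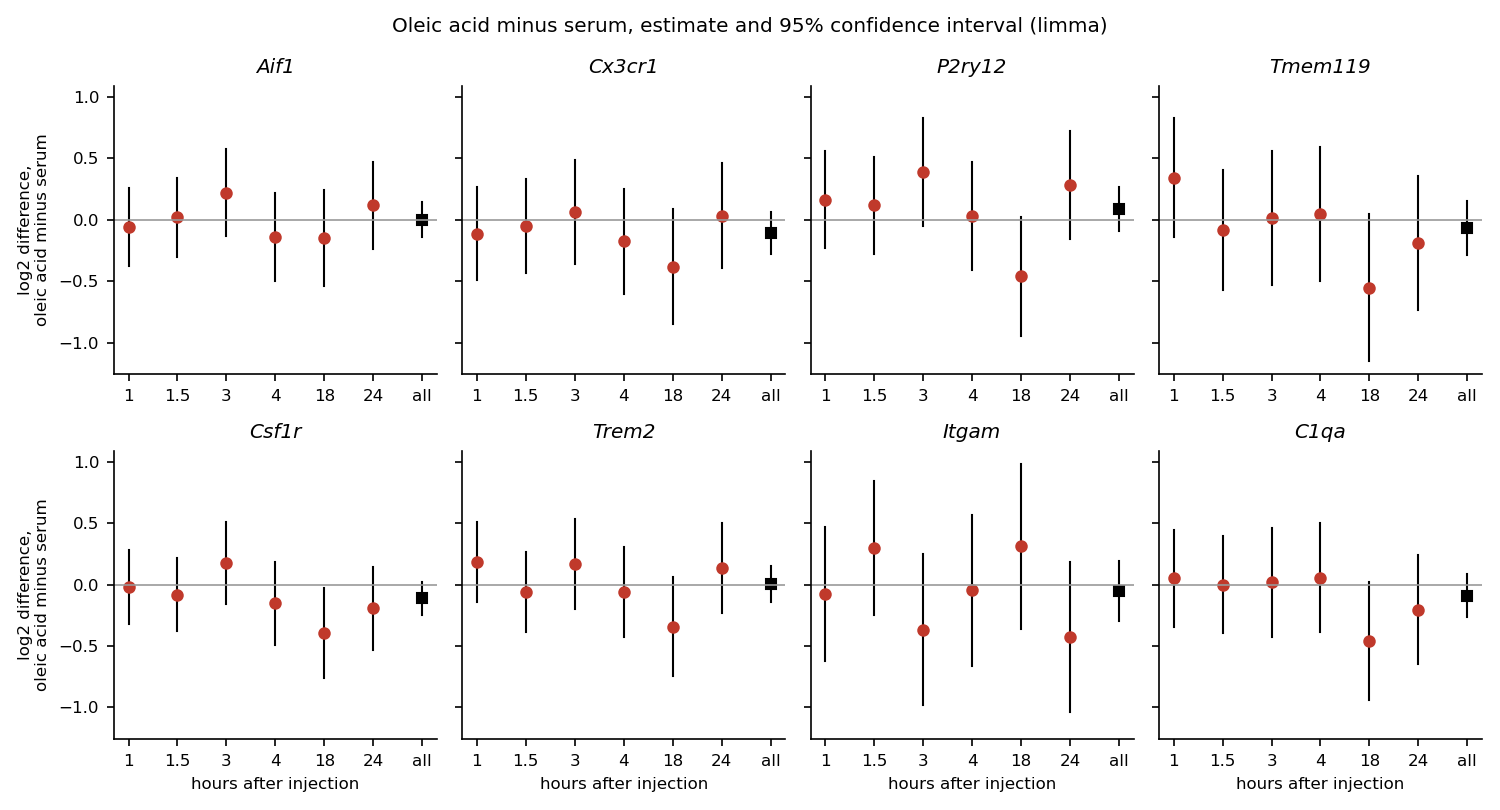
Log2 difference, oleic acid minus serum (vertical axis), of the 8 genes at each time and for the mean of the 6 times (square, marked all), with 95% confidence intervals from limma. Apart from Csf1r at 18 h, whose interval runs from -0.76 to -0.02, every interval includes 0.

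At 1, 1.5, 4 and 24 h no gene of the 8 had oleic acid mice all above or all below the serum mice, while 4.11 to 16.6% of all genes did so in one or the other direction at those times. The members' median log2 difference was 0.02 at 1 h, -0.03 at 1.5 h, -0.05 at 4 h and -0.08 at 24 h. Tmem119 at 1 h had the largest difference of the 1 and 1.5 h comparisons. Its levels were 1.38, 1.32 and 2.01 in oleic acid mice, against 1.39, 1.07 and 1.22 in serum mice. One oleic acid brain stood high and the other two lay within the serum range, and the log2 difference of 0.34 ± 0.235 (SE) did not pass (limma adjusted p = 0.924).

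The 1 h and 4 h groups each lay on a single slide, and at 3 h 2 of 3 oleic acid and both serum arrays shared slide 3. At 4 h both groups held a brain with very low Gabra6, and in each group that brain had the highest Aif1, Cx3cr1, Csf1r and Trem2. Leaving out serum replicate 2 at 4 h, the low-Gabra6 brain, moved the members' median log2 difference to 0.24, and leaving out serum replicate 1 moved it to -0.33. The sign of the 4 h median thus differed with the serum brain that was kept. At 24 h, P2ry12 had levels of -0.24, -0.17 and 0.19 in oleic acid mice, against -0.53 and -0.19 in serum mice, which overlap (log2 difference 0.28 ± 0.212, SE).

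At 3 h, 7 of the 8 genes were higher in oleic acid mice, with a median log2 difference of 0.12, against 0.02 over all genes. P2ry12 had levels of -0.06, 0.06 and 0.04 in oleic acid mice, against -0.22 and -0.53 in serum mice. The oleic acid values lay close together and above both serum values, and the log2 difference of 0.39 ± 0.212 (SE) did not pass (limma adjusted p = 0.939, interval -0.05 to 0.83). Within slide 3 it was 0.38. Aif1 had levels of 1.44, 1.2 and 1.36 in oleic acid mice, against 1.1 and 1.13 in serum mice, again without overlap, with a log2 difference of 0.22 ± 0.172 (SE). Itgam was the gene in the other direction, at 6.42, 6.13 and 5.83 in oleic acid mice, against 6.45 and 6.54 in serum mice. These 2 higher genes and 1 lower gene stand against 10% of all genes that were higher without overlap and 7.66% that were lower. Of 25 measured activation genes 20 were higher at 3 h (median log2 difference 0.21), of 21 further microglia genes 14 (median 0.13) and of 18 partners 8 (median -0.01), and none of them passed. The nearest of the activation and further microglia genes were Tlr4, a receptor for bacterial products, at 0.74 ± 0.312 (SE), Itgax at 0.83 ± 0.361, Tgfbr1 at 0.37 ± 0.178 and Gpr34 at 0.42 ± 0.209. All 7 perivascular macrophage genes were higher (median 0.19) and all 5 erythroid genes lower (median -1.26), and their part in these values was not tested.

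At 18 h 6 of the 8 genes had their widest difference, the exceptions being Aif1 (3 h) and Itgam (24 h), and 7 of 8 were lower in oleic acid mice, with a median log2 difference of -0.39, against -0.04 over all genes. Tmem119 had levels of 1.27 and 1.24 in oleic acid mice, against 2.19 and 1.43 in serum mice. C1qa had levels of 2.18 and 2.03 in oleic acid mice, against 2.89 and 2.24 in serum mice. In both genes serum replicate 1 stood high and replicate 2 lay close to the oleic acid mice. P2ry12 had levels of -0.32 and -0.43 in oleic acid mice, against 0.02 and 0.15 in serum mice. Csf1r, the growth factor receptor, had 4.07 and 4.30 in oleic acid mice, against 4.73 and 4.43 in serum mice. Here the pairs of mice lay apart from each other, by little in Csf1r and by more in P2ry12.

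The log2 differences at 18 h were -0.55 ± 0.288 (SE) for Tmem119, -0.46 ± 0.233 for C1qa, -0.46 ± 0.233 for P2ry12, -0.39 ± 0.177 for Csf1r, -0.38 ± 0.225 for Cx3cr1 and -0.34 ± 0.193 for Trem2. Aif1 was at -0.15 ± 0.188 and Itgam at 0.31 ± 0.324. None passed (limma adjusted p between 0.672 and 0.8). The 6 genes without overlap in the lower direction stand against 29.5% of all genes, and Itgam, without overlap in the higher direction, against 22.9%. Leaving out serum replicate 1 moved Tmem119 to -0.18, C1qa to -0.13 and Aif1 to 0.09, and leaving out serum replicate 2 moved them to -0.93, -0.79 and -0.39. With slide as a fixed block P2ry12 moved to 0.46. Treatment and slide cannot be told apart at 18 h.

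Other lists moved with the 8 genes at 18 h, none of their genes passing the test. Of 21 further microglia genes 19 were lower in oleic acid mice (median log2 difference -0.24), and of 18 partners of the 8 genes 17 were lower (median -0.29). The nearest of the further microglia genes were Slc2a5, a hexose transporter gene, at -0.39 ± 0.160 (SE), and Selplg, the gene of a selectin ligand, at -0.65 ± 0.270. Among partners, Tyrobp, the Trem2 adaptor, was at -0.54 ± 0.194 (SE, unadjusted p = 0.0109, limma adjusted p = 0.672), C1qb at -0.54 ± 0.250, C1qc at -0.32 ± 0.200, the ligand gene Cx3cl1 at -0.43 ± 0.256 and Il34 at -0.38 ± 0.274. Of 25 genes linked to microglial activation 18 were lower (median -0.13), with Fcgr1, an antibody receptor gene, at -0.57 ± 0.205, and of 7 genes of perivascular macrophages 7 (median -0.25). Of the neutrophil and monocyte list 10 of 16 genes passed the background filter, and Ly6g and Ccr2, which define neutrophils and inflammatory monocytes, did not. Of the 10 measured neutrophil and monocyte genes 9 were lower, with a median of -0.96. The mean level of that list was -2.07 and -2.98 in oleic acid mice, against -1.26 and -2.01 in serum mice. All 5 erythroid genes were lower, with a median of -0.84. All 8 cerebellum genes were higher, with a median of 1.55, and their mean level was 2.09 and 2.36 in oleic acid mice, against -0.86 and 1.96 in serum mice. The low value belongs to serum replicate 1, the brain with the highest Aif1, Cx3cr1, Tmem119 and C1qa of the 4. The part of these lists in the microglial values was not tested. None of these lower values passed. In whole brain, differences in the number of microglia, in RNA per microglial cell and in the brain parts sampled cannot be told apart.

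Over the 6 times together, the lists gave 0 called genes for the mean oleic acid effect: 6 of 21 further microglia genes were higher and 15 lower (median -0.04), 7 of 18 partners higher and 11 lower (median -0.04), and 13 of 25 activation genes higher and 12 lower (median 0.0025). Il1b, an inflammatory cytokine, came nearest among the activation genes, at a log2 difference of 0.26 ± 0.134 (SE, unadjusted p = 0.0648, limma adjusted p = 0.998). All 7 perivascular macrophage genes (median -0.15) and all 5 erythroid genes (median -0.67) were lower and all 8 cerebellum genes higher (median 0.26). Spi1 was at 0.22 ± 0.317, Csf1 at 0.01 ± 0.053 and Tyrobp at -0.08 ± 0.071.

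Time after injection was compared next. Within serum mice, 0 of 8 passed the F-test over the 6 times, against 10.4% of all genes, and within oleic acid mice 0 of 8, against 7.06%. At an unadjusted p under 0.05 the counts were again 0 of 8 in each, against 34.6% and 26.2% of all genes. Over both treatments, P2ry12 was lower at 3 and 4 h than at 1 and 1.5 h, with means of -0.24 and 0.09, a log2 difference of -0.33 ± 0.101 (SE, limma adjusted p = 0.0444). It was the only gene of the 8 that passed, against 9.44% of all genes called in this comparison, 6.68% higher and 2.76% lower. At an unadjusted p under 0.05 there were 2 of 8, P2ry12 and Cx3cr1, against 26.6% of all genes.

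P2ry12 levels at 1 h were 0.30, 0.21 and -0.08 in oleic acid mice and 0.23, -0.20 and -0.08 in serum mice. At 1.5 h they were -0.20, 0.43 and 0.26 in oleic acid mice and 0.05, 0.23 and -0.15 in serum mice. At 4 h they were -0.15, -0.57 and -0.14 in oleic acid mice and -0.66 and 0.03 in serum mice, and the 3 h values are given above. At 1 and 1.5 h the values lie around 0, and at 3 and 4 h most lie below it, with serum replicate 2 at 4 h, a low-Gabra6 brain, as the high exception among the 4 h values. At 18 and 24 h P2ry12 ran from -0.53 to 0.19 (median -0.19, n = 9). The 10 values of 3 and 4 h ran from -0.66 to 0.06 (median -0.14), against -0.20 to 0.43 (median 0.13) for the 12 values of 1 and 1.5 h.

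The time difference of P2ry12 kept its direction in 45 of 45 alternatives and its call in 17. Some of these could not move it: leaving out an array of 18 or 24 h, another filter or another Itgam probe left it at -0.33. With slide as a random block it was -0.34 (limma adjusted p = 0.374) and as a fixed block -0.60 (adjusted p = 0.925). Leaving out 1 array at a time kept the call in 12 of 31 cases. Slide 3 held mice of both time windows with the same treatment: oleic acid mice at 3 h had -0.06 and 0.06 there, against 0.43 and 0.26 at 1.5 h, a difference of -0.34. Leaving out serum replicate 1 at 4 h moved the difference to -0.24 (adjusted p = 0.12), and leaving out serum replicate 2 at 4 h moved it to -0.41 (adjusted p = 0.0179).

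Among 21 further microglia genes, 4 were called lower and 1 higher at 3 and 4 h, where 2.76% of all genes were called lower and 6.68% higher. P2ry13, another ADP receptor, differed by -0.55 ± 0.108 (SE, limma adjusted p = 0.00324), Sall1, a transcription factor of microglial identity, by -0.43 ± 0.095 (adjusted p = 0.00663), and Gpr34, a lysophosphatidylserine receptor, by -0.41 ± 0.099 (adjusted p = 0.0122). Golm1 differed by 0.21 ± 0.066 (adjusted p = 0.0452). With slide as a random block P2ry13, Sall1, Gpr34 and Golm1 all lost this call (adjusted p between 0.106 and 0.432), and Golm1 was called in 15 of 45 alternatives. P2ry13 values ran from -2.21 to -1.27 at 3 and 4 h, against -1.47 to -0.91 at 1 and 1.5 h and -1.29 to -0.80 at 18 and 24 h. P2ry13 was higher again at the late times, with a log2 difference of 0.64 ± 0.117 between 18 and 24 h and 3 and 4 h (adjusted p = 0.000874), and P2ry12 differed there by 0.06 ± 0.109 (adjusted p = 0.774).

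On slide 3 the 3 h values of P2ry13, Gpr34 and Sall1 in oleic acid mice, like those of P2ry12, lay below both 1.5 h values, with differences of -0.50, -0.41 and -0.32, and 16.5% of all genes did so. Of the 8 genes the other 7 overlapped there, with differences from -0.13 for Cx3cr1 to 0.15 for C1qa. One of the 1.5 h brains there, replicate 2, is a low-Gabra6 brain. Against the other alone, the difference was -0.26 for P2ry12, -0.355 for P2ry13, -0.38 for Gpr34 and -0.17 for Sall1. For 18 and 24 h against 3 and 4 h, P2ry13 kept its call with slide as a random block (adjusted p = 0.0226) and lost it as a fixed block (adjusted p = 0.587).

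**Figure D3:**
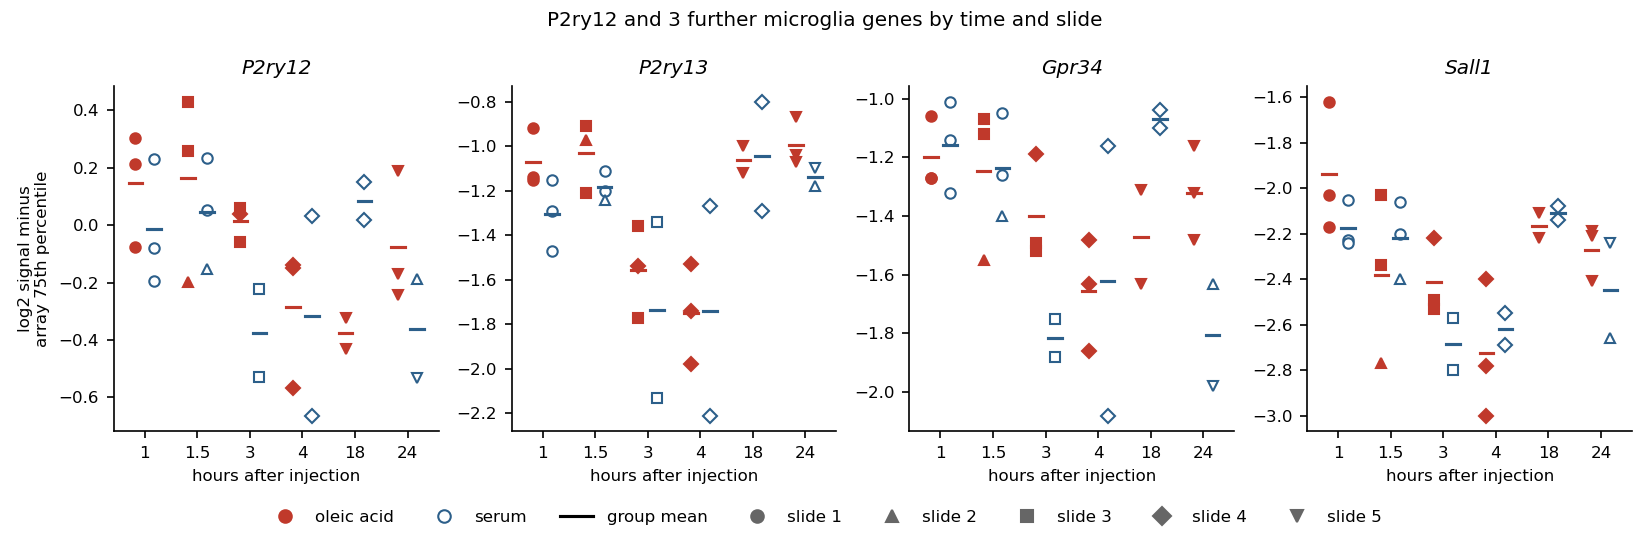
Log2 signal minus the array 75th percentile of P2ry12, P2ry13, Gpr34 and Sall1 against hours after injection, 1 point per mouse, with oleic acid filled, serum open, bars at group means and the marker shape giving the slide. The squares at 3 h (slide 3) lie below the squares at 1.5 h in oleic acid mice, by -0.34 for P2ry12 and -0.50 for P2ry13.

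Partners and activation genes were read in the same comparison. All genes had 9.44% called here, 6.68% higher and 2.76% lower. Of 18 partners 1 was called at 3 and 4 h, Runx1, a transcription factor gene, higher by 0.37 ± 0.115, and with slide as a fixed block it was at -0.58. Of 25 activation genes 3 were called higher and 1 lower: Ch25h, an oxysterol-producing enzyme gene, differed by 1.01 ± 0.211 (limma adjusted p = 0.00471), the chemokine genes Ccl4 and Ccl3 by 0.52 ± 0.145 and 0.71 ± 0.216, and Itgax by -0.55 ± 0.171. These calls too were lost with slide as a random block (adjusted p between 0.142 and 0.579). Among other lists, 4 of 5 erythroid genes were called higher, 2 of 8 endothelial genes lower, 1 of 8 oligodendrocyte genes higher, 1 of 8 astrocyte genes lower and 1 of 5 lymphocyte genes lower, and 0 of the neuron, neutrophil and monocyte, perivascular macrophage, cerebellum and pituitary genes were called. The part of these lists in the P2ry12 value was not tested.

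Cx3cr1 came next to P2ry12 among the 8. It averaged 2.48 at 3 and 4 h and 2.70 at 1 and 1.5 h (log2 difference -0.22 ± 0.097, limma adjusted p = 0.147), with its lowest group mean, 2.26 ± 0.284 (SD, n = 3), in oleic acid mice at 4 h. Its 4 h values were 2.28, 1.97 and 2.54 in oleic acid mice, against 2.04 and 2.84 in serum mice, and the highest in each group was the low-Gabra6 brain. A second Cx3cr1 probe gave -0.62 ± 0.120 for the same time comparison (adjusted p = 0.00296 over 35518 probes), but slide held 67.4% of its variance, against 6.92% for the brighter probe. That second probe averaged -0.05 on slide 4 and 0.58 to 0.98 on the other slides. Comparing 18 and 24 h with 3 and 4 h, Cx3cr1 differed by 0.22 ± 0.105 (adjusted p = 0.18), and without the 4 low-Gabra6 brains by 0.35 (adjusted p = 0.0155).

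The serum mice of 18 and 4 h all lay on slide 4. Cx3cr1 had levels of 3.13 and 2.78 at 18 h, against 2.04 and 2.84 at 4 h, which overlap, and the log2 difference was 0.52 ± 0.225 (limma adjusted p = 0.385). It was 0.12 without serum replicate 1 at 4 h, 0.92 without replicate 2 at 4 h, the low-Gabra6 brain, and 0.34 without replicate 1 at 18 h. P2ry12 had 0.02 and 0.15 at 18 h, against -0.66 and 0.03 at 4 h (log2 difference 0.40 ± 0.233, and 0.05 and 0.75 without the first and the second of the 4 h brains). None of the 8 passed, against 0.937% of all genes (0.292% higher and 0.644% lower), and 1 of 8, Cx3cr1, had an unadjusted p under 0.05, against 10.7%. The partner Runx1 differed by -1.40 between these serum mice of 18 and 4 h. It was called with slide as a fixed block (limma adjusted p = 0.00772) and as a random block (0.00706), and in 39 of 45 alternatives. In the comparisons of 18 and 24 h with 1 and 1.5 h and with 3 and 4 h, 0 of 8 passed. Of all genes, 11.2% (6.23% higher and 5.02% lower) and 12.7% (4.96% higher and 7.74% lower) did. At an unadjusted p under 0.05 there was 1 of 8 in each, P2ry12 and Cx3cr1, against 26.2% and 27.3% of all genes. Of the further microglia genes, 4 of 21 were called for 18 and 24 h against 3 and 4 h: P2ry13 (above), Sall1 (0.36 ± 0.102, limma adjusted p = 0.0225), Mertk, a receptor for engulfing dying cells (-0.35 ± 0.092, adjusted p = 0.0147), and Laptm5 (-0.48 ± 0.151, adjusted p = 0.0412). With slide as a random block Sall1 (adjusted p = 0.0954), Mertk (0.0704) and Laptm5 (0.244) lost this call. Laptm5 was also called lower than at 1 and 1.5 h (-0.81 ± 0.144, adjusted p = 0.00114), as was Runx1 (-0.90 ± 0.118, adjusted p = 0.000102). With slide as a random block Laptm5 lost that call (adjusted p = 0.0808), and with slide as a fixed block both did (adjusted p = 1 for Laptm5 and 0.111 for Runx1).

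The order of the 12 group means differed between genes. Serum mice at 18 h had the highest mean of Cx3cr1, Tmem119, Csf1r and C1qa, and oleic acid mice at 18 h the lowest of P2ry12, Csf1r and C1qa. The highest and lowest group means lay 0.28 apart for Aif1 (1.34 ± 0.124 in oleic acid mice at 3 h and 1.06 ± 0.132 in oleic acid mice at 4 h) and 0.69 apart for Cx3cr1. Trem2 was highest at 4 h, at 2.05 ± 0.228 in oleic acid mice (n = 3) and 2.105 ± 0.459 in serum mice (n = 2). The median SD within a group was between 0.13 for Aif1 and 0.273 for Tmem119. Of 88 gaps between neighbouring group means, 84 were no wider than the gene's median SD. Neighbours among 12 sorted means lie close together by construction, so this count cannot show whether the groups differ. The 4 wider gaps were in Cx3cr1 (0.205 between serum mice at 18 h and at 1 h, and 0.176 between serum and oleic acid mice at 4 h, against a median SD of 0.172) and in Itgam (0.26 and 0.311, against 0.222).

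Across the 31 brains, levels of 7 of the 8 genes moved together in part. Of 28 pairs, 12 had a Pearson correlation past a permutation test (100000 resamples, two-sided, Benjamini-Hochberg adjusted p under 0.05 over the 28 pairs), and all 12 were among the 21 pairs without Itgam. Tmem119 and C1qa were the closest, with r = 0.905 and Spearman's rho = 0.906 (permutation p = 1e-05 each, the smallest the resamples can give; adjusted p = 9.33e-05 and 0.00014). Without the 2 brains farthest from the median Tmem119, r was 0.882. Within the 4 slides that hold at least 6 arrays r was between 0.789 and 0.986, and with the group means removed it was 0.93. All points share 1 labelling and array design, and the 12 groups are pooled here.

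Aif1 and Cx3cr1 followed, with r = 0.76, rho = 0.741 (permutation p = 1e-05 each, adjusted p = 9.33e-05 and 0.00014), r = 0.713 without the 2 farthest brains and 0.757 to 0.839 within slides. Csf1r and Trem2 had r = 0.701 and rho = 0.666 (permutation p = 1e-05 and 7e-05, adjusted p = 9.33e-05 and 0.000653), 0.626 without the 2 farthest brains and 0.555 to 0.864 within slides. P2ry12 and Tmem119 had no correlation past the test (r = -0.037, rho = -0.088, permutation p = 0.84 and 0.64, adjusted p = 0.883 and 0.717; r = -0.076 without the 2 farthest brains). Within slides that pair ran from -0.222 to 0.616. P2ry12 and Cx3cr1 had r = 0.626 and rho = 0.503 (permutation p = 9e-05 and 0.00464, adjusted p = 0.000504 and 0.0162; 0.445 without the 2 farthest brains), but 0.07 within slide 5.

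**Figure D4:**
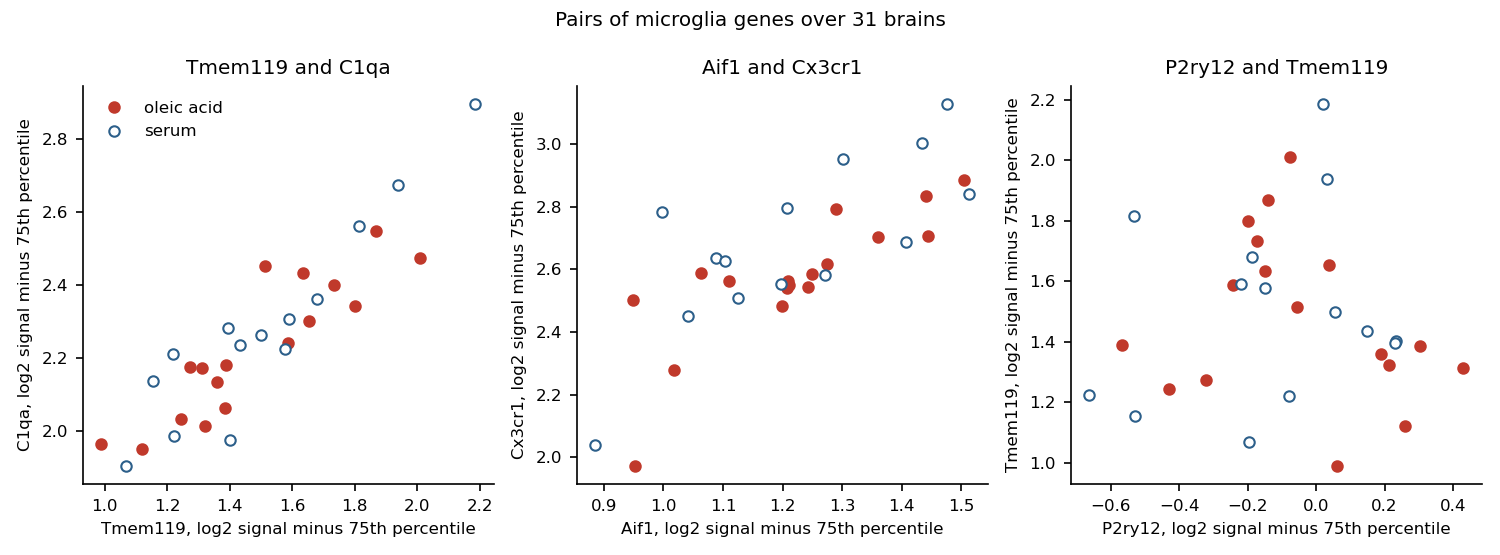
Levels of 3 pairs of microglia genes in 31 brains (log2 signal minus the array 75th percentile on both axes), 1 point per brain, oleic acid filled and serum open. Tmem119 and C1qa lie along a line (r = 0.905), Aif1 and Cx3cr1 more loosely (r = 0.76), and P2ry12 and Tmem119 show no line (r = -0.037).

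Markers of brain regions moved with some of these levels. Compared with their group mates, 7 genes (all but Itgam) were higher in 7 of 7 cases in serum 1 h replicate 1 (by 0.198 to 0.378), serum 4 h replicate 2 (by 0.375 to 0.801) and oleic acid 4 h replicate 3 (by 0.219 to 0.414), and in 6 of 7 in oleic acid 1.5 h replicate 2 (-0.148 to 0.4). These are the 4 brains with the lowest Gabra6. Over the other 27 brains, Tmem119 was lower where Gabra6 was higher (r = -0.583, rho = -0.698, permutation p = 0.00156 and 0.00011, adjusted p = 0.00624 and 0.00088 over the 8 genes; r = -0.53 without the 2 brains farthest in Gabra6). Within slides 1, 4 and 5 that r was -0.474, -0.917 and -0.893. Aif1 (r = -0.578, rho = -0.563, permutation p = 0.00139 and 0.00274, adjusted p = 0.00624 and 0.00731; -0.421 without the 2 brains) and C1qa (r = -0.535, rho = -0.571, permutation p = 0.00525 and 0.00197, adjusted p = 0.014 and 0.00731; -0.482) had the same direction, though within slide 1 they were at -0.196 and -0.014. For P2ry12 the relation did not pass (r = -0.084, rho = -0.115, permutation p = 0.679 and 0.567, adjusted p = 0.679 and 0.567; -0.073 without the 2 brains), with -0.513, -0.521 and 0.069 within slides 1, 4 and 5. Nor did it pass for Cx3cr1 (r = -0.392), Itgam (r = -0.363), Csf1r (r = -0.327) or Trem2 (r = -0.163), with permutation adjusted p between 0.091 and 0.477. Within slides 1, 4 and 5, however, r was -0.611, -0.929 and -0.736 for Trem2 and -0.374, -0.896 and -0.7 for Csf1r. Cx3cr1 had -0.468, -0.746 and -0.404 there, and Itgam -0.032, 0.289 and -0.228. Pooling slides thus gave a weaker r for Trem2 than any of these slides, and the within-slide values were not tested.

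The mean of the 8 genes followed that of the 21 further microglia genes over the 31 arrays with r = 0.844, that of the partners with 0.705, of the endothelial genes with 0.594, of the lymphocyte genes with 0.515, of the perivascular macrophage genes with 0.438, of the neutrophil and monocyte genes with 0.33, of the activation genes with 0.308 and of the neuron genes with 0.152. It ran against the cerebellum genes, at -0.774, and the astrocyte genes, at -0.452. The other lists were at 0.08 for erythroid, -0.06 for pituitary and -0.211 for oligodendrocyte genes. With group means removed, r was 0.89 for the further microglia genes, 0.825 for the endothelial genes and 0.776 for the partners. It was then -0.869 for the cerebellum genes and -0.703 for the astrocyte genes. The 8 genes thus moved with the endothelial list nearly as closely as with the further microglia genes. The 10 single genes most like the mean of the 8 were Tmco5, Psrc1, Rasl10a, Serpina9, Cox6a2, Tmem200a, Epop, St6galnac5, Pld3 and Lhx2, with r from 0.786 to 0.84 over 31 arrays. With group means removed they were Nat14, Cmip, Tubb2a, Rab3b, Pld3, Syt5, Cpne6, Ccno, Rasl10a and Pcsk5, with r from 0.902 to 0.937. None of these genes is in the cell type lists. All these values are descriptions across arrays that share the differences in regional markers given above.

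Itgam stood apart from the other 7 genes, with which its brightest probe correlated between -0.40 and 0.07. Its levels went with slide: the 3 arrays of slide 2 lay between 6.80 and 6.90, above every array of the other slides, whose means were 5.85 to 6.32. These 3 arrays were also the only ones of their scan date, so slide 2 and scan date cannot be told apart. Over the 31 arrays the brightest Itgam probe followed the mean of the 32 other well-measured probes with at least 8 CA units in a row with r = 0.928. All 32 had r over 0.5 with it, against 11.2% of all probes. Slide held a median of 71.6% of the variance of these repeat probes, against 36.9% over all probes. Its r with the second Itgam probe was 0.433 and with the third 0.511. The sequence of the brightest probe, its run of CA units in capitals above, is a feature it shares with those 32 probes. The mean of the repeat probes also correlated with the second (r = 0.526) and the third (r = 0.689) Itgam probe, whose longest runs have 2 CA units.

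The second Itgam probe averaged -2.53, and on slide 2 it too was highest, at -1.97 ± 0.212 (SD, n = 3), against means of -2.65 to -2.47 elsewhere. For oleic acid minus serum the brightest probe gave -0.37 at 3 h, -0.05 at 4 h and 0.31 at 18 h, while the second probe gave 0.08, 0.39 and -0.48. The signs of the 2 probes were opposite at these 3 times, and at 1 h, where they gave -0.08 and 0.005. They shared a sign at 1.5 h, with 0.30 and 0.11, and at 24 h, with -0.43 from each. No value of either passed. For the mean over the 6 times they gave -0.05 ± 0.119 and -0.06 ± 0.099. With the second probe in its place, no call of the 8 genes changed.

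**Figure D5:**
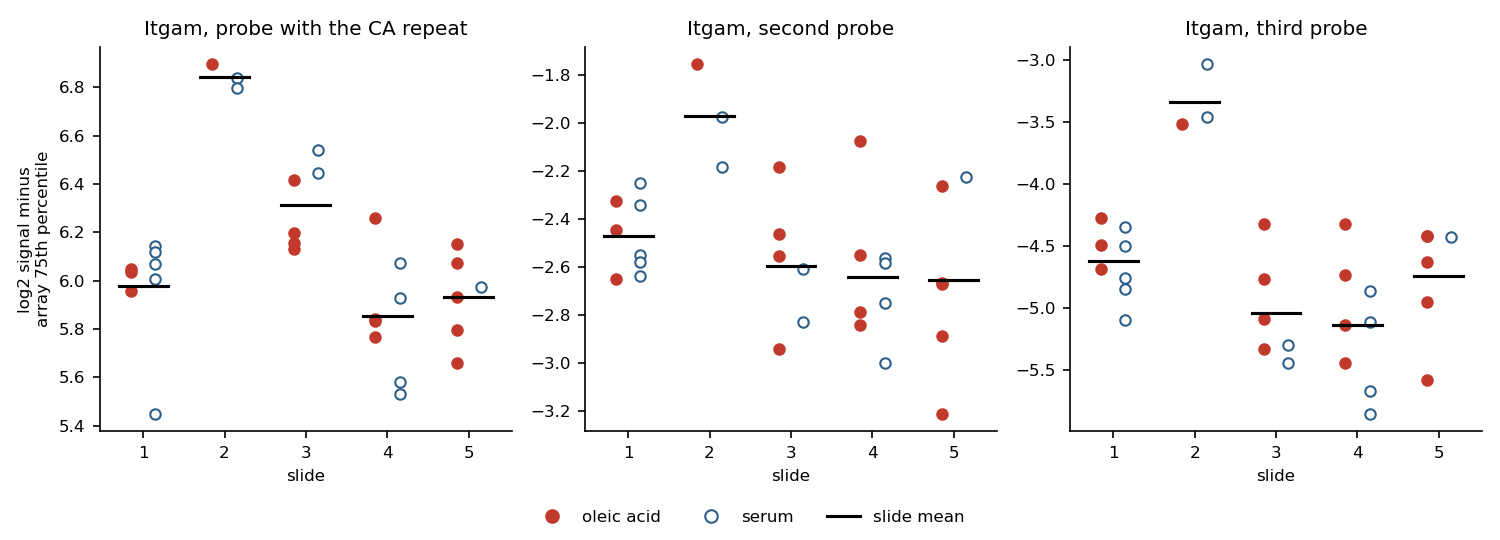
Log2 signal minus the array 75th percentile of the 3 Itgam probes by slide, 1 point per array, oleic acid filled, serum open, bars at slide means; each panel has its own axis. Slide 2, with 3 arrays, is highest on average in all 3 panels, at 6.84 for the probe with the CA repeat, against 5.85 to 6.32 on the other slides.

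Csf1r had 3 probes as well. Its brightest followed the second with r = 0.417 and the third with -0.075, and slide held 18.5%, 26% and 58% of their variance. At 18 h they gave oleic acid minus serum differences of -0.39 ± 0.179, -0.33 ± 0.235 and 0.0022 ± 0.186, so the low unadjusted p of Csf1r at 18 h was seen by the brightest probe and not by the other 2. The third probe was higher at 18 and 24 h than at 3 and 4 h by 0.28 ± 0.087 (limma adjusted p = 0.0357 over 35518 probes), and the brightest was at 0.01 ± 0.084. The second Cx3cr1 probe likewise gave 0.14 ± 0.277 at 18 h, where the brighter gave -0.38 ± 0.226.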

How the data were processed

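RNA from 31 whole brains was labelled with Cy3 and hybridised to Agilent arrays, per the labels' protocols. The deposited scanner files hold signal intensity per spot, made with Agilent Feature Extraction 10.5.1.1 as the headers of the files record, which subtracts background. The deposited series table holds log2 values whose method is not given in the sources used here. Its columns correlated with the log2 mean signals at 0.998 to 1 and had medians of 6.34 to 6.35, and how they were centred on this level stays unknown. Here, log2 of the processed signal minus each array's 75th percentile was used (306 to 813 signal units across arrays). Non-uniform spots were left out, and no spot was saturated. Between 54.3 and 76.3% of spots per array were well above background. Probes were kept where 1 of the 12 groups or more had them well above background throughout and all 31 arrays measured them (35518 of 55681 probes), and the brightest probe stood for each of 25300 genes, named through RefSeq where the accession matched (26582 probes). The number of arrays limits the precision.

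Limma 3.58.1 in R 4.3.3 fitted 12 group means (19 residual degrees of freedom), with Benjamini-Hochberg adjustment over all genes and a threshold of 0.05, after tests on simulated data. Permutation tests used numpy 2.4.6, with ranks for Spearman's rho from scipy 1.17.1. The 8 genes, the cell type lists and the tests were chosen with earlier results of these data known. Named genes were the 8, up to 4 called genes per list and comparison by adjusted p or the 2 nearest where none was called, and named partners. Replicate numbers were not taken to pair mice. The 14 same-numbered pairs correlated between -0.62 and 0.39, which cannot exclude a pairing. Alternatives (14, and leaving out each of 31 arrays) are given at the end.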

Additional observations from a re-analysis of the deposited data

How the results depend on the processing

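Of the 8 genes, 0 passed for oleic acid minus serum under any of the 45 alternatives, at each of the 6 times, for the mean effect and for the difference between times. The count at 3 and 4 h against 1 and 1.5 h was 1 (P2ry12). It was 0 with normexp background correction, scaling to the median, the deposited table, no filter on dim probes, slide as a fixed or a random block, without the 4 low-Gabra6 arrays and without the 3 arrays highest in Prl. It was 2 with the mean of all probes, where Cx3cr1 was called too (-0.42, limma adjusted p = 0.00787). Adjusted p for P2ry12 in these alternatives ran from 0.0179 to 0.925, and it was 0.0626 under normexp and 0.0564 from the deposited values. Leaving out 1 array at a time gave counts of 0 to 2: P2ry12 lost its call in 19 of 31 cases, and Cx3cr1 was called as well without serum 4 h replicate 2. The counts were 0 to 1 for 18 and 24 h against 3 and 4 h (Cx3cr1, without serum 4 h replicate 2) and against 1 and 1.5 h (P2ry12, without oleic acid 1.5 h replicate 1). The count for 18 and 24 h against 3 and 4 h was 1 (Cx3cr1) without the 4 low-Gabra6 arrays. With the replicate block, P2ry12 was at -0.32 (adjusted p = 0.0575) and the count was 0; the block changed no other call of the 8 genes. Runx1 at 3 and 4 h against 1 and 1.5 h turned to -0.58 with slide as a fixed block. The causes were not tested, beyond the fewer arrays in some fits. Of the log2 differences and medians under alternatives, 5003 kept their side of the threshold or moved by less than the spread between mice, 91 moved by more, 250 lost a call, 5 gained one and 1 was reversed. Most of these values were not called in the main fit and so had no call to lose. The second Itgam probe and the slide 3 difference without the low-Gabra6 brain were added after seeing the data. Over all genes, calls at 3 and 4 h against 1 and 1.5 h numbered 2389, against 1087 with scaling to the median, 814 without the low-Gabra6 arrays, 123 with slide as a random block and 3 with slide as a fixed block. Groups of 2 or 3 mice, and slides bound to time, limit what can be seen, at 18 h most.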
